A study of Mus musculus with 8 samples.

Results

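The genes described here are 32 genes known from the stroma and the endothelium of the bone marrow, and their RNA was followed in neutrophil preparations from mouse bone marrow. They were taken by symbol from the deposited table of read counts, which lists 24421 genes, and all 32 symbols were rows of it. By role they were 6 genes of the stromal niche (Cxcl12, Lepr, Kitl, Adipoq, Pdgfra and Pdgfrb), 12 genes of the fibrillar and interstitial matrix (Col1a1, Col1a2, Col3a1, Col5a1, Col6a1, Sparc, Bgn, Dcn, Lum, Fn1, Fbn1 and Postn), 2 basement membrane collagens (Col4a1 and Col4a2), 5 osteoblast genes (Ibsp, Spp1, Runx2, Sp7 and Alpl), 2 genes for IGF-binding proteins (Igfbp4 and Igfbp5) and 5 endothelial genes (Cdh5, Kdr, Emcn, Tek and Eng). The neutrophils came from WT and Padi4-/- (Padi4 KO) mice of the C57BL/6 background at 8 weeks of age, the KO carrying a deletion of Padi4 exon 1. They were isolated magnetically and left without stimulation, or kept for 6 h with R848 at 1 µg/ml, a small-molecule agonist of TLR7. Each of the 4 groups (WT unstimulated, Padi4 KO unstimulated, WT with R848, Padi4 KO with R848) had 2 libraries. For the unstimulated cells the sample titles give 0 h and the methods 6 h, so that each R848 response given below may include the effect of time in culture. The labels do not say whether the duplicates came from separate mice, and p-values then measure only the spread between these libraries, which may be technical.

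Bone marrow stroma is the network of mesenchymal cells, osteoblast precursors, adipocyte precursors and vessels in which blood cells form. Niche cells that carry the leptin receptor release Cxcl12, which holds neutrophils and stem cells in the marrow through the receptor Cxcr4, and stem cell factor (Kitl), which acts through Kit. The same lineage and its osteoblast descendants lay down type I collagen, and sinusoidal endothelial cells, which carry VE-cadherin (Cdh5), endomucin (Emcn) and the receptors Kdr and Tek, form the wall that neutrophils cross into the blood. Mature neutrophils are not known as a main source of these products. Several of the genes are, however, also known from blood cells, among them Fn1 and Spp1 in monocytes and macrophages and Sparc in megakaryocytes.

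The libraries held between 562446 and 1177972 reads counted on genes. A floor of 3 counts corresponded to between 2.55 and 5.33 CPM (counts per 1000000 counts of a library on genes) in a library, and to 2.49, 1.65, 2.35 and 1.30 CPM in the pooled libraries of the unstimulated WT, unstimulated Padi4 KO, R848 WT and R848 Padi4 KO groups. Floors and the intervals named as counting intervals cover counting error only, and intervals of log2 fold changes come from the standard errors of the edgeR fit. Padi4 had 166 to 590 counts in WT libraries and 21 to 54 in Padi4 KO libraries. The summed level of 16 neutrophil genes was between 125593 and 170339 CPM in every library, and without stimulation 15 of the 16 were called lower in Padi4 KO than in WT, against 14.4% of all genes tested. Scaling bears on every fold change below. Over the 10351 genes with at least 10 counts, the median log2 fold change with TMM factors was -0.19 after R848 in WT and -0.02 in Padi4 KO, and -0.07 and 0.09 for Padi4 KO against WT without stimulation and after R848. By library size alone these medians were -0.48, -0.40, 0.20 and 0.30. No member called below changed direction between these scalings. Summed levels and pooled ratios below are by library size alone unless TMM is named. The TMM factors were 1.01 and 1.03 in unstimulated WT and 1.24 and 1.25 in unstimulated Padi4 KO. After R848 they were 0.80 and 0.84 in WT and 0.96 and 0.96 in Padi4 KO. They raise each ratio of R848 to unstimulated and lower each ratio of Padi4 KO to WT.

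Most of the 32 genes were barely present. Of the list, 6 had no count in any library (Kitl, Adipoq, Col6a1, Fbn1, Col4a1 and Emcn), 12 had between 1 and 9 counts over all 8 libraries, and 14 had at least 10. The 32 genes held 5271 counts in all, of which Fn1 alone held 53.3%, and Fn1, Col1a1, Col1a2 and Sparc together 83.5%. Of the genes that define niche cells and vessels in the marrow, Cxcl12 had 3 counts, Lepr 1, Cdh5 1 and Tek 1 in all libraries together. The list was thus represented by matrix genes and by genes shared with blood cells, and its label as stromal and endothelial does not rest here on the defining markers of those cells. In bulk RNA, fewer cells of a type and less RNA per cell cannot be told apart.

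**Figure D1:**
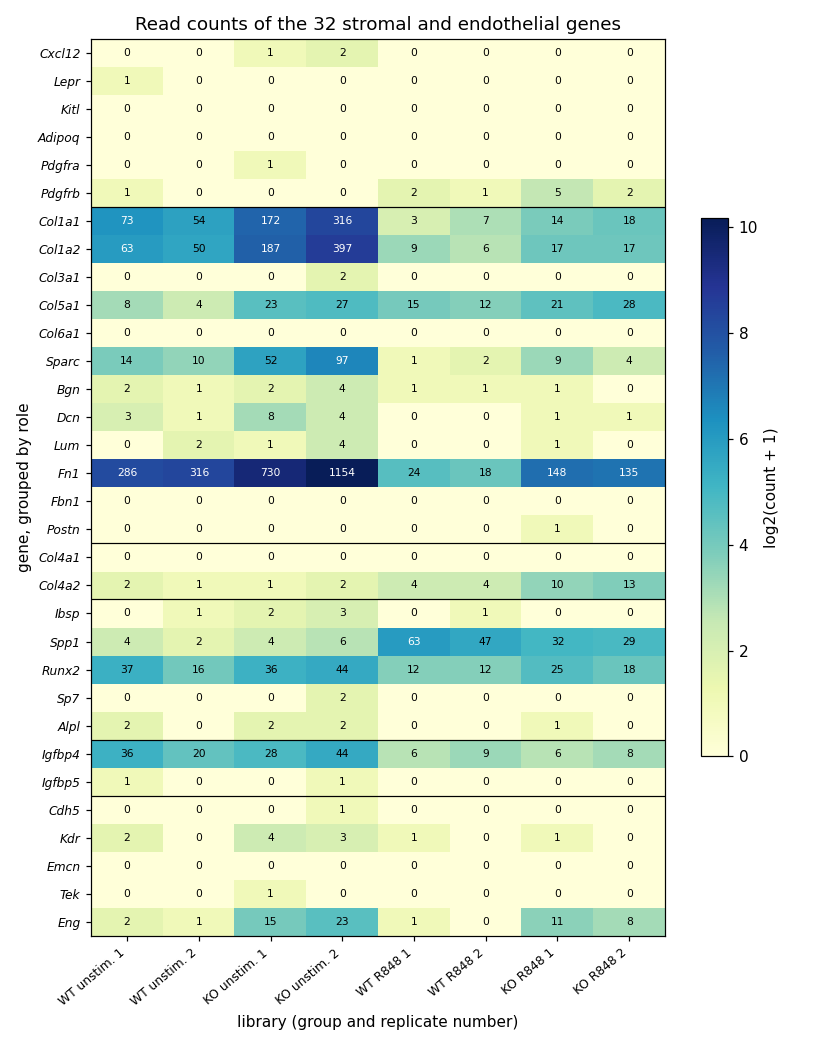
Read counts of the 32 genes (rows, grouped by role in the order niche, fibrillar matrix, basement membrane, osteoblast, IGF-binding, endothelial) in the 8 libraries (columns). Each cell gives the count, coloured by log2(count + 1). The dark rows are Fn1, Col1a1 and Col1a2 in the 4 unstimulated libraries, and Kitl, Adipoq, Col6a1, Fbn1, Col4a1 and Emcn are at 0 throughout.

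Of the 8 members with at least 80 counts in all, 6 were found in a RefSeq table of promoters on GRCm38, the assembly of mm10. Promoters are shown for Igfbp4, which fell after R848 in both genotypes, and Spp1, which rose in both, because their windows overlap no annotated exon and the genes moved in opposite directions. The 250 bases before the RefSeq start are written 5′ to 3′ on the strand of the gene, which for both is the plus strand. Capitals mark matches on either strand to any of 6 short motifs. Of the general promoter elements, the TATA box was searched for as TATAAA, the box named for its letters as CCAAT, and the GC box that Sp1 binds as GGGCGG. Of the sites of regulated factors, the site of AP-1 was searched for as TGANTCA, that of NF-kB as GGANTTTCC and that of the RUNX family as TGTGGT.
Igfbp4, chr11:99040994-99041243: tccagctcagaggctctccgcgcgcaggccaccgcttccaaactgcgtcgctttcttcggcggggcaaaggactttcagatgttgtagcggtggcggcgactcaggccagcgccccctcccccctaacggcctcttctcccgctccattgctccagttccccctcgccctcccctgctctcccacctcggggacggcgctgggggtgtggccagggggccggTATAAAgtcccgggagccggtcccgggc
Spp1, chr5:104434861-104435110: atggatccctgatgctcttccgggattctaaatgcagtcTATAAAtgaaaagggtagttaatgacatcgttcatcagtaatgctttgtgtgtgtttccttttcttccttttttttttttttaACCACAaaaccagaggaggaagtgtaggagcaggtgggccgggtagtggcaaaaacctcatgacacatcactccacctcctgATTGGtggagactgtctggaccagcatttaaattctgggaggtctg
The Igfbp4 window held a TATA box 28 bases before the start and no other match. The Spp1 window held a match to the letters TATAAA 211 bases before the start, a RUNX match at 128 bases and a CCAAT match at 46 bases, the last pair on the minus strand. Of 32851 mouse promoter windows of the same length, 12.4% held the TATA box, 33.8% the CCAAT box, 32.7% the GC box, 6.75% the AP-1 motif, 1.07% the NF-kB motif and 14.05% the RUNX motif. These matches describe the sequence and do not show that a factor binds there.

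Summed over all 32 genes, the level was 838 and 852 CPM in unstimulated WT neutrophils and 1773 and 1939 CPM in unstimulated Padi4 KO neutrophils. The R848 libraries held 233 and 179 CPM in WT and 258 and 248 CPM in Padi4 KO. Both unstimulated groups lay above both R848 groups, and the unstimulated groups did not overlap. In WT the mean was 845 ± 9.78 CPM before and 206 ± 37.7 CPM after R848 (SD, n = 2), and in Padi4 KO it was 1856 ± 118 and 253 ± 7.29 CPM (SD, n = 2). The pooled ratio of Padi4 KO to WT was 2.22 without stimulation (95% exact counting interval 2.07 to 2.38) and 1.24 after R848 (1.07 to 1.43). With TMM-scaled library sizes the ratio was 1.82 without stimulation and 1.06 after R848, so that no difference after R848 is read from the sum. Without Fn1, the ratio after R848 was 0.759 (0.636 to 0.908), a sum in which Spp1 held 61 counts in Padi4 KO and 110 in WT. Without all 7 members also known in blood cells, Fn1 and Spp1 among them, the ratio after R848 was 1.25 (0.929 to 1.69). Over the 24 members with fewer than 80 counts it was 1.94 (1.09 to 3.62), a sum in which Eng held 19 of 56 counts in Padi4 KO and 1 of 16 in WT. These ratios are by library size alone and TMM factors lower them, so that no difference is read from them either. Without stimulation the ratio without Fn1 was 2.44. In WT the make-up of the sum also differed, with Spp1 at 6.24 of 838 CPM in unstimulated replicate 1 and 103 of 233 CPM in R848 replicate 1. In Padi4 KO Fn1 led before and after R848, with 1019 of 1773 CPM in unstimulated replicate 1 and 126 of 258 CPM in R848 replicate 1.

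**Figure D2:**
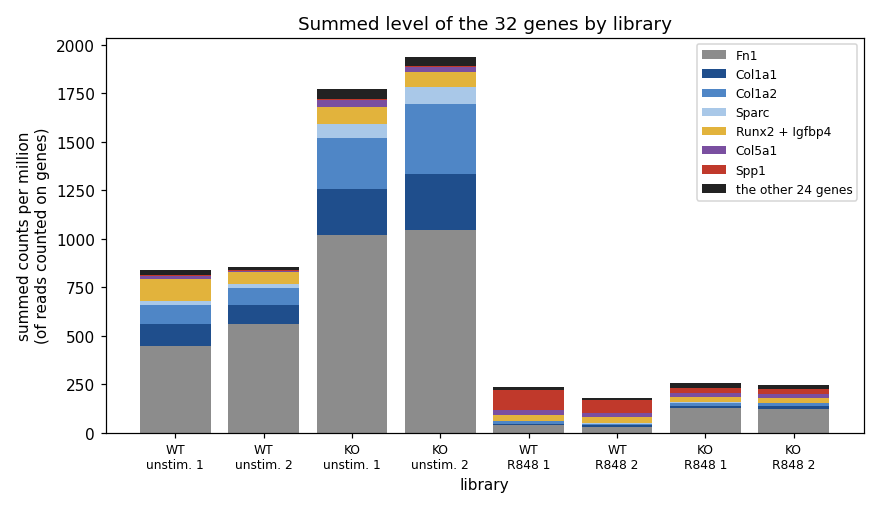
Summed level of the 32 genes in each library, in CPM of reads counted on genes, stacked by gene. Bars start at 0. The unstimulated Padi4 KO libraries reach 1773 and 1939 CPM and the unstimulated WT libraries 838 and 852 CPM, while the 4 R848 libraries stay between 179 and 258 CPM.

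Levels of different genes were compared only per kilobase of the longest annotated coding transcript, with no test. In unstimulated WT neutrophils Fn1 was highest with 60.6 CPM per kilobase, followed by Col1a1 with 17.7, Col1a2 with 17.5, Igfbp4 with 11.97, Sparc with 8.61 and Runx2 with 6.67. In unstimulated Padi4 KO neutrophils the order was Fn1 with 124, Col1a2 with 58.1, Col1a1 with 44.4 and Sparc with 34.9 CPM per kilobase. After R848, Spp1 led with 57.6 in WT and 17.5 in Padi4 KO, followed in both by Fn1 with 3.98 and 14.7 CPM per kilobase.

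The fit across all genes tested 12254 genes, among them 19 of the 32; the other 13 had too few counts to enter it. Calls used a false discovery rate below 0.1, and for the response to R848 also a change exceeding 2-fold. After R848 in WT, 2 of the 19 were called higher and 5 lower, against 7.18% and 10.8% of all genes tested. In Padi4 KO, 3 were higher and 7 lower, against 8.09% and 8.83%. Padi4 KO exceeded WT without stimulation in 6 members and fell below it in 0, against 9.54% higher and 14.4% lower of all genes. That 0 also stood at an unadjusted p below 0.05, with edgeR and with DESeq2. After R848, Padi4 KO was higher in 2 members and lower in 1, against 9.44% and 7.84%. The difference of the R848 response (Padi4 KO minus WT) passed for 1 member, Fn1, as higher, against 3.44% higher and 1.26% lower of all genes. Over the 14 members with at least 10 counts, the median log2 fold change was -1.08 after R848 in WT and -2.26 in Padi4 KO, and 0.72 and 0.13 for Padi4 KO against WT without stimulation and after R848. With Dcn, which had no count after R848 in WT, taken at the floor of 3 counts, the median in WT was -0.81. The medians between genotypes were 0.76 and 0.11 over 13 members, leaving out in each comparison 1 member with no count in a group and no more than 3 in the other.

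**Figure D3:**
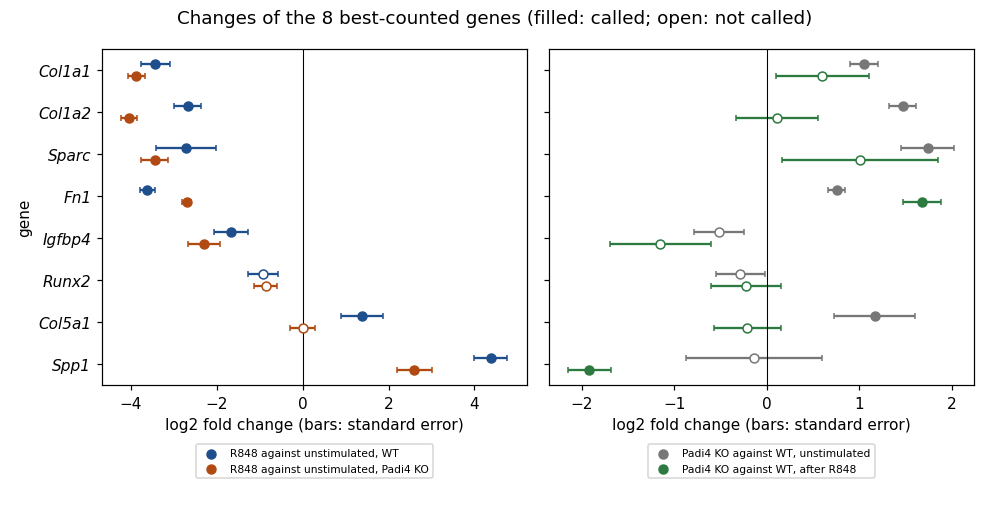
Log2 fold changes of the 8 members with at least 80 counts (points, with standard errors as bars) from edgeR with TMM factors. The left panel gives R848 against unstimulated in each genotype and the right panel Padi4 KO against WT in each treatment; filled points were called. Col1a1, Col1a2, Sparc, Fn1 and Igfbp4 lie to the left in both genotypes and Spp1 to the right, and Fn1 is filled in all 4 comparisons.

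Type I collagen, the main fibre of bone, and Sparc, a secreted glycoprotein that binds collagen, fell together. Col1a1, which encodes its alpha 1 chain (chromosome 11, 94936224 to 94953042, plus strand, in GENCODE on GRCm38), had 73 and 54 counts in unstimulated WT and 172 and 316 in unstimulated Padi4 KO neutrophils. With R848 the WT libraries had 3 and 7 counts and the Padi4 KO libraries 14 and 18. The R848 libraries lay far below the unstimulated libraries of the same genotype. Its log2 fold change after R848 was -3.43 in WT (standard error 0.35, edgeR adjusted p = 1.88e-21) and -3.88 in Padi4 KO (standard error 0.19, edgeR adjusted p = 1.02e-85). Col1a2, the alpha 2 chain (chromosome 6, 4504814 to 4541544, plus strand), had 63 and 50 counts in unstimulated WT, 187 and 397 in unstimulated Padi4 KO, 9 and 6 in WT after R848 and 17 and 17 in Padi4 KO after R848. It changed by -2.68 in WT (standard error 0.32, edgeR adjusted p = 3.24e-15) and -4.04 in Padi4 KO (standard error 0.19, edgeR adjusted p = 1.76e-102). Sparc (chromosome 11, 55394500 to 55423183, minus strand) had 14 and 10, 52 and 97, 1 and 2, and 9 and 4 counts in these groups, and changed by -2.72 in WT (standard error 0.70, edgeR adjusted p = 0.000745) and -3.45 in Padi4 KO (standard error 0.31, edgeR adjusted p = 1.13e-26). Each of these genes therefore fell in both genotypes.

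Without stimulation the same genes were higher in Padi4 KO than in WT neutrophils, and in each the groups did not overlap in CPM. Col1a1 averaged 105 ± 12.6 CPM in WT and 263 ± 32.9 CPM in Padi4 KO (SD, n = 2), a log2 fold change of 1.05 (standard error 0.15, edgeR adjusted p = 1.17e-10). Col1a2 averaged 93.6 ± 6.64 and 311 ± 70.1 CPM (SD, n = 2), a log2 fold change of 1.47 (standard error 0.15, edgeR adjusted p = 1.27e-20). Sparc averaged 19.8 ± 2.87 and 80.3 ± 10.9 CPM (SD, n = 2), a log2 fold change of 1.74 (standard error 0.29, edgeR adjusted p = 4.53e-08). After R848 none of the genes was called between the genotypes. The log2 fold change of Padi4 KO against WT was then 0.60 for Col1a1 (95% interval -0.38 to 1.58), 0.11 for Col1a2 (-0.76 to 0.98) and 1.01 for Sparc (-0.64 to 2.66), with edgeR adjusted p of 0.519, 0.932 and 0.520. Intervals of this width leave differences of more than 1 on the log2 scale undecided for Col1a1 and Sparc. Whether the fall differed between genotypes was tested directly and was not called, with a difference of -0.45 for Col1a1 (edgeR adjusted p = 0.825), -1.36 for Col1a2 (standard error 0.50, edgeR adjusted p = 0.131) and -0.73 for Sparc (edgeR adjusted p = 0.863). The Col1a2 difference did pass with relative log expression factors, at -1.51 (edgeR adjusted p = 0.0926), without unstimulated Padi4 KO replicate 1, at -1.54, and without R848 WT replicate 2, at -1.96, and its edgeR adjusted p ran up to 0.610 when other libraries were left out.

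The chains of type I collagen assemble as a trimer with more alpha 1 than alpha 2 chain. Per kilobase of transcript, Col1a1 stood to Col1a2 at 1.05 and 0.974 in the unstimulated WT libraries and at 0.830 and 0.718 in the unstimulated Padi4 KO libraries. After R848 the ratios ran from 0.301 to 1.05 in WT, on 3 to 9 counts a gene, and from 0.743 to 0.955 in Padi4 KO. No order of the groups was read from these ratios.

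Among the other fibrillar members, Col5a1, a minor collagen that joins type I fibrils (chromosome 2, 27886425 to 28039514, plus strand), did not fall. It had 8 and 4 counts in unstimulated WT, 23 and 27 in unstimulated Padi4 KO, 15 and 12 in WT after R848 and 21 and 28 in Padi4 KO after R848. The unstimulated WT libraries, at 12.5 and 7.11 CPM, lay below the other 6 libraries, which ranged from 17.8 to 32.1 CPM. It rose in WT by a log2 fold change of 1.37 (standard error 0.49, edgeR adjusted p = 0.0223), a call that was lost with DESeq2, without unstimulated WT replicate 2, at 1.04, and without R848 WT replicate 1, at 1.24. Without stimulation it was higher in Padi4 KO by 1.17 (standard error 0.44, edgeR adjusted p = 0.0429), a call that was lost with DESeq2, without unstimulated WT replicate 2, at 0.83, and without unstimulated Padi4 KO replicate 1, at 1.01. Its difference of response was -1.37 (edgeR adjusted p = 0.212), and was called without R848 WT replicate 2, at -1.86. The annotated exons of Col5a1 overlap 2810430I11Rik and Gm13372 on the other strand. The library kit does not mark strand and the strand setting of the counting is not given in the sources used here, so that reads of such partners cannot be told apart.

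Dcn, the proteoglycan decorin that coats collagen fibrils, had 3 and 1 counts in unstimulated WT, 8 and 4 in unstimulated Padi4 KO, 0 and 0 in WT after R848, and 1 and 1 in Padi4 KO after R848. In Padi4 KO its pooled share after R848 was 0.131 of that without stimulation (95% exact counting interval 0.0143 to 0.589). It was called lower there (edgeR adjusted p = 0.0513), and the call was lost without unstimulated Padi4 KO replicate 1 (edgeR adjusted p = 0.477) and without R848 Padi4 KO replicate 1 or 2 (0.194 and 0.179). Bgn, the related proteoglycan biglycan, had 12 counts in all 8 libraries together and Lum, lumican, 8. Col3a1 had 2 counts, both in unstimulated Padi4 KO replicate 2, and Postn 1. Fbn1 and Col6a1 had none. Of the 12 fibrillar and interstitial genes, Fn1, Col1a1, Col1a2 and Sparc made up nearly all counts.

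Fn1 encodes fibronectin, the matrix protein to which integrins such as that of Itga5 and Itgb1 bind (chromosome 1, 71585520 to 71653200, minus strand, where Apol7d on the other strand overlaps its exons). It had 286 and 316 counts in unstimulated WT and 730 and 1154 in unstimulated Padi4 KO neutrophils. With R848 the WT libraries had 24 and 18 counts and the Padi4 KO libraries 148 and 135. No groups overlapped in CPM, and their order was unstimulated Padi4 KO with 1033 ± 19.7, unstimulated WT with 504 ± 81.8, R848 Padi4 KO with 122 ± 4.67 and R848 WT with 33.1 ± 8.79 CPM (SD, n = 2 each). The log2 fold change after R848 was -3.62 in WT (standard error 0.17, edgeR adjusted p = 8.54e-94) and -2.70 in Padi4 KO (standard error 0.10, edgeR adjusted p = 2.05e-152). Padi4 KO was higher than WT by 0.76 without stimulation (standard error 0.09, edgeR adjusted p = 8.79e-15) and by 1.68 after R848 (standard error 0.21, edgeR adjusted p = 1.51e-13). The difference of response was 0.92 (standard error 0.24, edgeR adjusted p = 0.00819), a smaller fall in Padi4 KO. This difference rested on the R848 WT libraries. It was 0.39 without R848 WT replicate 2 (edgeR adjusted p = 0.708) and 0.98 without R848 WT replicate 1 (edgeR adjusted p = 0.106), and with DESeq2 it was 0.77 with an adjusted p of 0.200. The median difference of all genes was 0.20 in the same edgeR fit.

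**Figure D4:**
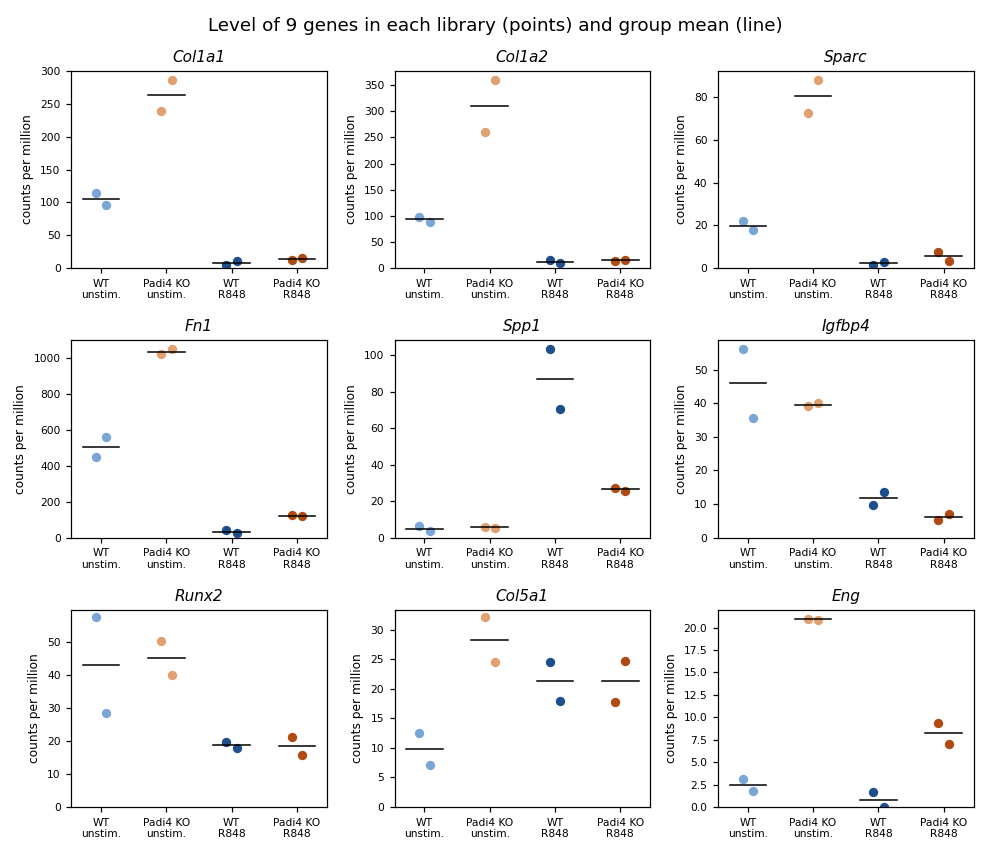
Levels of 9 members in CPM of the library total (vertical axes, from 0, a separate scale for each gene), with points for the 2 libraries of a group and a line for their mean. Fn1, Col1a1, Col1a2 and Sparc are highest in unstimulated Padi4 KO and lowest after R848, Spp1 is highest in WT after R848 at 70.3 and 103 CPM, and Eng is highest in unstimulated Padi4 KO at 20.9 CPM in both libraries.

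Some markers of other cells moved with these genes. The summed level of 10 megakaryocyte and platelet genes was 110 to 147 CPM in unstimulated WT, 242 to 268 in unstimulated Padi4 KO, 13.5 to 18.0 in WT after R848 and 47.5 to 52.9 in Padi4 KO after R848, the same order of groups as for Fn1. Of the 10 genes, 7 fell in WT and 6 in Padi4 KO after R848, against 10.8% and 8.83% of all genes. Without stimulation 2 were higher in Padi4 KO, against 9.54%. In WT after R848, 4 of the 10 (Gp1ba, Treml1, Vwf and Gp5) were at 0. Pf4, platelet factor 4, had 8 and 12 counts in unstimulated WT and 52 and 53 in unstimulated Padi4 KO, a log2 fold change of 1.51 (standard error 0.33, edgeR adjusted p = 6.04e-05). Among 10 monocyte genes, Fn1 included, 5 fell and 3 rose after R848 in each genotype, against 10.8% and 7.18% of all genes in WT and 8.83% and 8.09% in Padi4 KO. Without stimulation 7 were higher and 1 lower in Padi4 KO, against 9.54% and 14.4%. The other 9 of them summed to 1460 to 1582 CPM in unstimulated WT, 2110 to 2154 in unstimulated Padi4 KO, 1878 to 2157 in WT after R848 and 2085 to 2091 in Padi4 KO after R848, and none of these 9 was at 0 over a group. F13a1, a transglutaminase subunit of monocytes and platelets, had 107 and 109 counts in unstimulated WT, 327 and 517 in unstimulated Padi4 KO, 24 and 33 in WT after R848 and 113 and 118 in Padi4 KO after R848. Other monocyte genes rose after R848: Csf1r by 2.72 and 2.62, Nr4a1 by 5.61 and 4.48 and Cx3cr1, named after its values were seen, by 2.36 and 2.24 on the log2 scale in WT and Padi4 KO. By library size alone, the pooled level of the 9 genes after R848 was 1.33 of that without stimulation in WT (95% exact counting interval 1.25 to 1.41). In Padi4 KO it was 0.977 (0.936 to 1.02). TMM factors raise both ratios, so that no lack of change in Padi4 KO is read from this value. The 10 B and plasma cell genes summed to 90.5 to 114 CPM in unstimulated WT, 177 to 186 in unstimulated Padi4 KO, 42.6 to 61.3 in WT after R848 and 115 to 121 in Padi4 KO after R848. Most of these counts were Jchain, the joining chain of plasma cell antibodies, with 53 and 58, 121 and 190, 23 and 31, and 119 and 116 counts in these groups. Of the 5 genes tested, Jchain alone was called, higher in Padi4 KO by 0.60 without stimulation and by 1.05 after R848 (edgeR adjusted p = 0.00295 and 1.88e-05), while Ebf1 was at 0 in all libraries. According to the methods, nearly all cells after magnetic isolation were CD11b+ Ly6G+, a purity stated for the method and not for each library. The part of these cells in the levels of Fn1, Sparc and type I collagen was not tested.

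**Figure D5:**
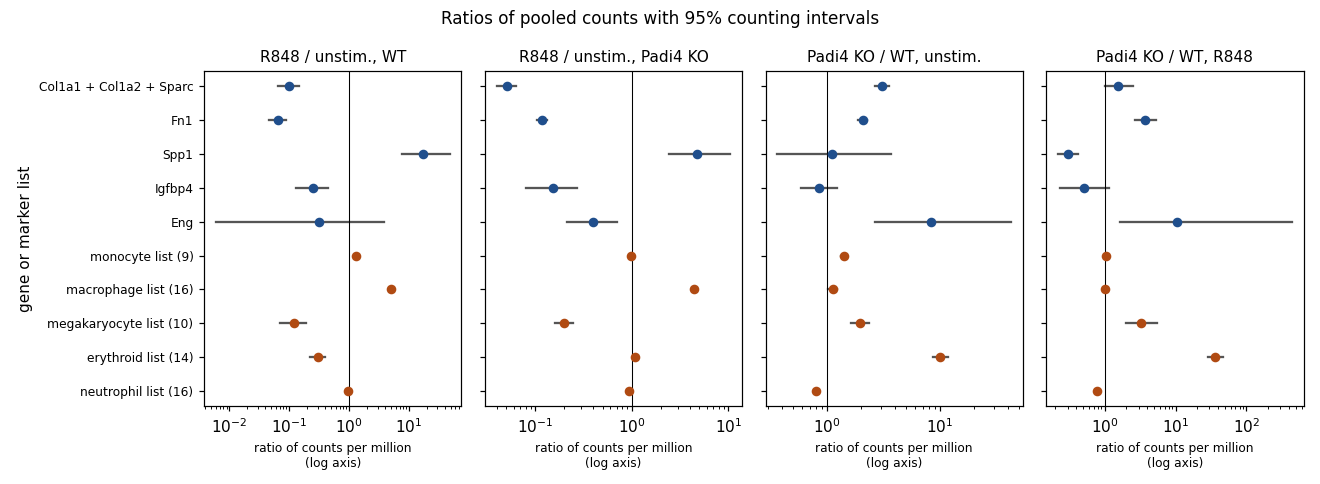
Ratios of CPM pooled over the 2 libraries of a group, with 95% exact counting intervals (bars, hidden by the point where narrow), for members (blue) and marker lists of other cells (orange) in 4 comparisons, on log axes. Spp1 lies to the right of 1 in both R848 panels with ratios of 17.3 and 4.80, Fn1 and the sum of Col1a1, Col1a2 and Sparc lie to the left there, and the megakaryocyte list lies on the same side as Fn1 in all panels, at 0.121, 0.199, 1.95 and 3.21.

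The basement membrane collagens were low. Col4a1 had no count in any library, and Col4a2, which encodes its partner chain (plus strand, chromosome 8, 11312805 to 11449287, span overlapping Col4a1), gave 2 and 1 counts in unstimulated WT, 1 and 2 in unstimulated Padi4 KO, 4 and 4 in WT after R848 and 10 and 13 in Padi4 KO after R848. Col4a2 was thus higher in every R848 library than in the unstimulated libraries of its genotype. In Padi4 KO it rose by 2.84 on the log2 scale (standard error 0.73, edgeR adjusted p = 0.000659). In WT the value was 1.58 (95% interval -0.31 to 3.46, edgeR adjusted p = 0.255), and the difference of response was not called (edgeR adjusted p = 0.786).

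Of the osteoblast genes, Spp1 rose after R848 in both genotypes. It encodes osteopontin, a secreted phosphoprotein of bone matrix that macrophages also make (chromosome 5, 104435118 to 104441050, plus strand, where Gm42793 overlaps its exons on the same strand). It had 4 and 2 counts in unstimulated WT, 4 and 6 in unstimulated Padi4 KO, 63 and 47 in WT after R848 and 32 and 29 in Padi4 KO after R848. Every R848 library exceeded every unstimulated library, and after R848 both WT libraries exceeded both Padi4 KO libraries. It rose by 4.37 on the log2 scale in WT (standard error 0.39, edgeR adjusted p = 7.08e-27) and 2.60 in Padi4 KO (standard error 0.41, edgeR adjusted p = 3.23e-09). After R848 the level was 86.8 ± 23.3 CPM in WT and 26.4 ± 1.13 CPM in Padi4 KO (SD, n = 2), a log2 fold change of -1.92 (standard error 0.23, edgeR adjusted p = 2.07e-14). The difference of response was -1.77 (standard error 0.78) and did not pass over all genes (edgeR adjusted p = 0.242). It passed without R848 WT replicate 2, at -2.30. The pooled unstimulated counts behind it were 6 in WT and 10 in Padi4 KO. The promoter of Spp1 printed above was the window that held the RUNX and CCAAT matches.

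Some macrophage markers also rose after R848. The 16 macrophage genes summed to 699 to 743 CPM in unstimulated WT, 794 to 819 in unstimulated Padi4 KO, 3511 to 3651 in WT after R848 and 3518 to 3615 in Padi4 KO after R848. Of the 16, 4 rose and 0 fell in WT, against 7.18% and 10.8% of all genes, and 5 rose and 1 fell in Padi4 KO, against 8.09% and 8.83%. In addition, 5 of them were at 0 over each R848 group, among them Mrc1, Cd163 and Mertk in both genotypes. The sum rested mainly on Adgre1 (F4/80), with 26 and 22 counts in unstimulated WT and 1240 and 1332 in WT after R848, and Csf1r, with 81 and 94 and then 430 and 569. Between Padi4 KO and WT after R848, Adgre1 was lower, at -0.44 (edgeR adjusted p = 3.32e-08), and Csf1r higher, at 0.21 (edgeR adjusted p = 0.0688). After R848 the summed macrophage level of Padi4 KO was 0.995 of that of WT (95% exact counting interval 0.960 to 1.03), where the ratio for Spp1 was 0.307 (0.221 to 0.423). The part of macrophages in the rise of Spp1 was not tested.

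Runx2, the transcription factor that directs osteoblast formation (chromosome 17, 44495987 to 44814797, minus strand, with Runx2os1 and Supt3 on the other strand), had 37 and 16 counts in unstimulated WT, 36 and 44 in unstimulated Padi4 KO, 12 and 12 in WT after R848 and 25 and 18 in Padi4 KO after R848. Its log2 fold change after R848 was -0.92 in WT (standard error 0.35, edgeR adjusted p = 0.0365) and -0.86 in Padi4 KO (standard error 0.27, edgeR adjusted p = 0.00748), below the 2-fold limit in both. By library size alone it was -1.22 and -1.24 and was called in both. Over fits that left out 1 library, the value ran from -1.33 to -0.28 in WT and from -1.09 to -0.67 in Padi4 KO. The largest fall in WT came without unstimulated WT replicate 2. In Padi4 KO the value was -1.06 without unstimulated Padi4 KO replicate 2 and -1.09 without R848 Padi4 KO replicate 1. The size of the fall in WT thus depended on single libraries. Sp7 (osterix), which acts below Runx2, had 2 counts, both in unstimulated Padi4 KO replicate 2. Ibsp, bone sialoprotein, had 7 counts in all, of which 5 were in unstimulated Padi4 KO and 0 in Padi4 KO after R848, at least 2.12-fold lower against the floor of 3 counts over the group. That call (edgeR adjusted p = 0.0894) was lost without any 1 of the WT unstimulated, Padi4 KO unstimulated or Padi4 KO R848 libraries (edgeR adjusted p up to 0.286). Alpl, alkaline phosphatase, had 7 counts in all and was not called.

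Igfbp4 encodes a secreted protein that binds insulin-like growth factors (chromosome 11, 99041244 to 99054392, plus strand). It had 36 and 20 counts in unstimulated WT, 28 and 44 in unstimulated Padi4 KO, 6 and 9 in WT after R848 and 6 and 8 in Padi4 KO after R848. All R848 libraries lay below all unstimulated libraries in CPM, at 5.09 to 13.5 against 35.6 to 56.2. It fell by 1.67 on the log2 scale in WT (standard error 0.39, edgeR adjusted p = 0.000162) and by 2.30 in Padi4 KO (standard error 0.37, edgeR adjusted p = 5.80e-09). Igfbp4 was not called between the genotypes with all libraries. Without stimulation its log2 fold change was -0.52 (95% interval -1.05 to 0.01, edgeR adjusted p = 0.182), and without unstimulated WT replicate 2 it was -0.80 and was called lower (edgeR adjusted p = 0.0793). After R848 it was -1.15 (95% interval -2.21 to -0.09, edgeR adjusted p = 0.163). Igfbp5 had 2 counts in all.

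The endothelial genes were carried by Eng, the TGF-beta co-receptor endoglin (chromosome 2, 32646595 to 32682669, plus strand, with Fpgs on the other strand over its exons). It had 2 and 1 counts in unstimulated WT, 15 and 23 in unstimulated Padi4 KO, 1 and 0 in WT after R848 and 11 and 8 in Padi4 KO after R848. Every Padi4 KO library lay above every WT library. Padi4 KO exceeded WT by a log2 fold change of 2.71 without stimulation (standard error 0.68, edgeR adjusted p = 0.000859) and of 2.99 after R848 (standard error 1.05, edgeR adjusted p = 0.0339). The second call was lost with DESeq2, without R848 WT replicate 2, at 1.92, and without R848 Padi4 KO replicate 1, at 2.77. After R848 in Padi4 KO, Eng changed by -0.96 (edgeR adjusted p = 0.0682), just under the 2-fold limit, and it was called lower by library size alone, at -1.33, with relative log expression factors, at -1.04, with a filter by expression, at -1.02, and without either R848 WT library, at -1.09. Kdr, a receptor of VEGF, had 11 counts in all, 7 of them in unstimulated Padi4 KO, and was not called. Cdh5, Tek and Emcn, which mark endothelial cells more strictly, had 1, 1 and 0 counts.

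Erythroid genes also separated the genotypes. In WT after R848, genes at 0 included Klf1, Rhag, Trim10 and Car1, and in the other groups no gene of the list was. The sum of the 14 erythroid genes in the table was 156 to 179 CPM in unstimulated WT, 1680 to 1720 in unstimulated Padi4 KO, 34.4 to 68.8 in WT after R848 and 1817 to 1876 in Padi4 KO after R848. Between Padi4 KO and WT, 13 of the 14 were higher without stimulation and all 14 after R848, against 9.54% and 9.44% of all genes. Eng, which erythroid and other blood progenitors are known to carry, was higher in Padi4 KO in both comparisons. By library size alone, the pooled level of Eng after R848 in Padi4 KO was 0.393 of that without stimulation (95% exact counting interval 0.214 to 0.699). For the sum of the erythroid genes this ratio was 1.09 (1.04 to 1.14). TMM factors raise both ratios, and in the fit with TMM factors Eng changed by -0.96 on the log2 scale and was not called. The part of such cells in the level of Eng was not tested.

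The niche genes gave 16 counts in all. Pdgfrb, the PDGF receptor of pericytes and mesenchymal cells (chromosome 18, 61045150 to 61085061, plus strand), held 11 of them, with 1 and 0 in unstimulated WT, 0 and 0 in unstimulated Padi4 KO, 2 and 1 in WT after R848 and 5 and 2 in Padi4 KO after R848. In Padi4 KO it was called higher after R848 (edgeR adjusted p = 0.0289), at least 1.84-fold higher against the floor of 3 counts over the group, and the call was lost without either unstimulated Padi4 KO library and without R848 Padi4 KO replicate 1. Cxcl12 had 1 and 2 counts in unstimulated Padi4 KO and 0 in the other 6 libraries. Lepr and Pdgfra had 1 count each and Kitl and Adipoq none. At this depth no difference in the niche genes other than Pdgfrb was detectable.

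The receptors on which these products act were measured more deeply. Of 28 receptors and partners of the members, 24 were tested. After R848, 3 rose and 4 fell in WT, against 7.18% and 10.8% of all genes, and 2 rose and 4 fell in Padi4 KO, against 8.09% and 8.83%. Without stimulation Padi4 KO exceeded WT in 1 and was below it in 6, against 9.54% and 14.4%. After R848 it exceeded WT in 1 and was below it in 5, against 9.44% and 7.84%. The difference of response was called higher in 2 and lower in 1, against 3.44% and 1.26%. Cxcr4, the receptor of Cxcl12, had 335 and 308 counts in unstimulated WT, 246 and 364 in unstimulated Padi4 KO, 152 and 160 in WT after R848 and 272 and 229 in Padi4 KO after R848. Without stimulation Cxcr4 in Padi4 KO stood to WT at -0.96 on the log2 scale (standard error 0.10, edgeR adjusted p = 1.35e-18). After R848 the gap was smaller, at -0.39 (standard error 0.12, edgeR adjusted p = 0.0123). Its difference of response was 0.57 (standard error 0.16, edgeR adjusted p = 0.0147), from changes of -0.82 in WT and -0.26 in Padi4 KO, both below the 2-fold limit. Integrin chains known to take part in binding fibronectin moved in different directions. Itga5 had 5 and 7 counts in unstimulated WT and 89 and 102 after R848, and 14 and 23 and then 220 and 216 in Padi4 KO. It rose by 4.19 on the log2 scale in WT (standard error 0.29, edgeR adjusted p = 1.63e-44) and 3.58 in Padi4 KO (standard error 0.19, edgeR adjusted p = 6.34e-75). Itgb1, its partner chain, rose by 2.16 in WT (standard error 0.15, edgeR adjusted p = 7.41e-43) and 1.76 in Padi4 KO (standard error 0.11, edgeR adjusted p = 4.16e-52). Itga4 changed by -1.60 in WT (standard error 0.27, edgeR adjusted p = 5.05e-08) and by -0.80 in Padi4 KO, below the 2-fold limit. Itgb3 fell by 1.15 in WT (edgeR adjusted p = 9.38e-08) and by 1.18 in Padi4 KO (edgeR adjusted p = 2.53e-12), and its partner Itgav, at -0.04 and 0.38, was not called. Itgb3 and Itgav were named after their values were seen. Itga6, a laminin receptor chain, fell by 4.17 in WT (edgeR adjusted p = 4.30e-09) and by 1.91 in Padi4 KO (edgeR adjusted p = 1.30e-05).

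Of 24 genes that process collagen (prolyl and lysyl hydroxylases, chaperones, cross-linking enzymes, collagenases and their inhibitors), 19 were tested. In WT, 2 rose and 0 fell after R848, where 7.18% and 10.8% of all genes did, and in Padi4 KO 2 rose and 2 fell, against 8.09% and 8.83%. Without stimulation 3 were higher and 1 lower in Padi4 KO, against 9.54% and 14.4%. Their summed level was 769 ± 6.59 CPM in unstimulated WT and 511 ± 49.8 CPM after R848, and 931 ± 45.6 and 572 ± 12.2 CPM in Padi4 KO (SD, n = 2 each). Mmp14, a membrane collagenase that macrophages also carry, rose by 3.74 in WT (standard error 0.73, edgeR adjusted p = 3.63e-06) and by 3.49 in Padi4 KO (standard error 0.30, edgeR adjusted p = 3.02e-29).

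Other markers of the same tissue compartments were also sparse. Of 39 further stromal genes, 37 were rows of the table and 16 were tested. After R848, 3 of the 16 rose and 2 fell in WT, against 7.18% and 10.8% of all genes, and 4 rose and 7 fell in Padi4 KO, against 8.09% and 8.83%. Without stimulation 4 were higher and 1 was lower in Padi4 KO, against 9.54% and 14.4%. Some that fell resembled type I collagen in their counts, and these were picked after their values were seen. Col11a1, a fibrillar collagen of cartilage and bone, had 4 and 2 counts in unstimulated WT, 13 and 18 in unstimulated Padi4 KO and 0 in all 4 R848 libraries. Bglap, osteocalcin, had 1 and 8 counts in unstimulated WT, 6 and 28 in unstimulated Padi4 KO, 0 and 0 in WT after R848 and 3 and 2 in Padi4 KO after R848, but shares near-identical sequence with Bglap2, so that its reads may be split. Of the further stromal genes that rose, Lpl (lipoprotein lipase), Vcam1 and Vcan (versican), which macrophages or monocytes also make, changed by 3.21, 1.45 and 1.49 in WT and by 3.63, 1.76 and 1.33 in Padi4 KO.

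Of 20 further endothelial genes, 11 were tested. After R848, 0 rose and 3 fell in WT, against 7.18% and 10.8% of all genes, and 1 rose and 3 fell in Padi4 KO, against 8.09% and 8.83%. Without stimulation 0 were higher and 2 lower in Padi4 KO, against 9.54% and 14.4%. By library size alone the pooled level in Padi4 KO was then 0.817 of that in WT (95% exact counting interval 0.663 to 1.01). The ratio for Eng was 8.38 (2.66 to 42.4), and TMM factors lower both ratios. Most counts of the list were of Erg, Stab1 and Vwf, which are not confined to endothelium. Erg, an endothelial transcription factor that blood progenitors also use, was the other gene called without stimulation beside Stab1, at -0.88 (standard error 0.24, edgeR adjusted p = 0.00264). Vwf, von Willebrand factor, which megakaryocytes also make, had 13 and 6 counts in unstimulated WT, 20 and 31 in unstimulated Padi4 KO, 0 and 0 in WT after R848 and 5 and 6 in Padi4 KO after R848. Stab1, a scavenger receptor of sinusoids and macrophages, was called lower without stimulation in Padi4 KO, at -2.20 (standard error 0.48, edgeR adjusted p = 7.27e-05). After R848 it was called higher in Padi4 KO, at 0.92 (standard error 0.27, edgeR adjusted p = 0.00741), and its difference of response was 3.12 (standard error 0.55, edgeR adjusted p = 4.05e-06). Of 8 pericyte and smooth muscle genes 4 were tested, and after R848 2 rose in WT, against 7.18% of all genes, and 1 rose and 1 fell in Padi4 KO, against 8.09% and 8.83%.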

How the data were processed

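Neutrophils isolated from bone marrow were sequenced as polyadenylated RNA, and 8 libraries in 4 groups were analysed, grouped by their sample labels. The authors deposited 1 table of raw read counts per gene, not normalized. According to the study's methods and processing notes, reads were checked with FastQC 0.11.7, trimmed with cutadapt 1.16, aligned to mm10 with STAR 2.5.3a and counted with HTSeq 0.6.1p1. The annotation and the strand setting are not given in the sources used here. Between 87.0% and 89.5% of the reads in each column fell on genes, and the rows that name no gene were left out of totals. Totals ran from 562446 to 1177972 counts.

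Genes with at least 1 count in at least 2 libraries were fitted with edgeR 4.0.16 (quasi-likelihood F test, robust, TMM factors, 4 group means over all 8 libraries) in R 4.3.3, with Benjamini-Hochberg adjustment over the 12254 genes tested. The scripts were tested on simulated data. Summed levels are counts over library totals, with 95% exact intervals (SciPy 1.17.1). Gene positions came from GENCODE on GRCm38 and promoters from RefSeq. The 32 genes and all other lists were chosen with earlier results of these data known. Members with at least 10 counts in all were described by library and the others by summed counts. Of other lists, at most the 4 called genes with the largest change and at least 10 counts on average were named per comparison, with exceptions stated; Col11a1, Bglap, Itgb3, Itgav, Cx3cr1 and the marker genes named only as being at 0 in a group are such exceptions. Duplicates differed by little more than counting noise, with chi-square over degrees of freedom from 1.05 in unstimulated Padi4 KO to 1.67 in WT after R848. The common coefficient of variation beyond counting noise was 4.70% in the fit. Neither value shows that the duplicates were separate mice. Alternatives were other size factors, DESeq2 1.42.0, other filters and thresholds, a replicate block, separate models, each library left out in turn, and sums without groups of members.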

Additional observations from a re-analysis of the deposited data

Results flagged for a closer look

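The R848 response of Fn1 differed between the genotypes by 0.92 on the log2 scale (Padi4 KO minus WT, interaction contrast of the edgeR fit, adjusted p = 0.00819), with a fall in all libraries of both genotypes that was smaller in Padi4 KO. In WT the fall went from 446 and 562 CPM to 39.3 and 26.9 CPM, and in Padi4 KO from 1019 and 1047 CPM to 126 and 119 CPM. Of the 19 members tested, Fn1 alone passed this test, and the call was lost with DESeq2 (0.77, adjusted p = 0.200), without R848 WT replicate 1, at 0.98, and without R848 WT replicate 2, at 0.39.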

How the results depend on the processing

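Of the recomputed log2 fold changes, 568 kept their direction and side of the threshold, 16 gained a call, 26 lost one and 1 reversed: Col1a2 in Padi4 KO against WT after R848 was -0.34 without R848 WT replicate 2, and up to 0.42 without other libraries. Members called ranged, over fits that left out 1 library, from 6 to 7 for R848 in WT, 7 to 11 for R848 in Padi4 KO, 5 to 6 and 2 to 3 for Padi4 KO against WT without stimulation and after R848, and 0 to 3 for the difference of response, which gave 2 with relative log expression factors and 0 with DESeq2. A lone library left in a group was assumed to vary like the other groups. With the replicate block the counts were 7, 9, 6, 3 and 1, and Ibsp in Padi4 KO was lost. The replicate numbers do not pair the libraries (correlations -0.02 to 0.02 over 6912 genes). DESeq2 gave no adjusted p for Dcn, Ibsp or Pdgfrb in Padi4 KO.

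Summed levels with TMM-scaled library sizes were 828, 1493, 251 and 264 CPM (unstimulated WT and Padi4 KO, then R848), with ratios of 0.300 and 0.176 for R848 in WT and Padi4 KO and 1.82 and 1.06 for Padi4 KO against WT without stimulation and after R848. Without Fn1 the sums were 341, 823 and 131 CPM in unstimulated WT, unstimulated Padi4 KO and R848 Padi4 KO, with ratios of 0.500, 0.156, 2.44 and 0.759. Without the 7 members also known in blood cells the sums were 223, 630, 52.6 and 65.4 CPM, with ratios of 0.101 for R848 in Padi4 KO and 2.87 for Padi4 KO against WT without stimulation. Without the 5 endothelial genes R848 Padi4 KO was at 244 CPM. Without 1 library the sums were 838 to 852, 1773 to 1939, 179 to 233 and 248 to 258 CPM, and the ratios 0.213 to 0.276, 0.130 to 0.143, 2.10 to 2.30 and 1.09 to 1.41. The cause of these shifts was not tested. Depth limits every member under 10 counts.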
